A study of Mus musculus with 6 samples.

Results

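The genes described here are 40 genes of the folding machinery of the endoplasmic reticulum (ER) and of the unfolded protein response, chosen by name as chaperones and their cofactors, disulfide enzymes, lectin chaperones, genes of ER-associated degradation (ERAD), and the sensors and transcription factors of the IRE1 and ATF6 branches. All 40 were found among the 55401 genes of the deposited table, and 38 were tested, since their level averaged 1 FPKM or more (fragment counts normalized for transcript length and library depth). The libraries were labelled as mouse female germline stem cells (FGSCs) of strain C57BL/6, passaged more than 20 times and grown on STO feeder cells, an established line of mouse fibroblasts. In the metformin group, 3 libraries were made from cells given 1 μM metformin for 24 h, and in the control group 3 libraries were labelled as the same cells with no treatment. The text of the treatment protocol, which describes metformin, is attached to the control samples too, so that the groups were taken from the treatment label. As given below, markers in the libraries went against the labelled cell type. No gene was deleted or introduced in either group. The labels number the repeats but do not say whether they were separate cultures, so that p-values measure the spread between these libraries, which may be technical. The question addressed was whether genes of ER stress differed along with a list of ATF4 targets. That list was written with earlier results of these libraries known.

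The ER is where secreted and membrane proteins fold. Its HSP70 chaperone BiP (Hspa5) and its HSP90 chaperone GRP94 (Hsp90b1) hold unfolded chains, the lectins calnexin (Canx) and calreticulin (Calr) hold glycoproteins, protein disulfide isomerases form and exchange disulfide bonds, and ERAD sends chains that fail to fold back to the cytosol for degradation. When unfolded chains accumulate, the sensors IRE1 (Ern1), ATF6 (Atf6) and PERK (Eif2ak3) act. IRE1 splices the mRNA of Xbp1, ATF6 is cut in the Golgi by the proteases of Mbtps1 and Mbtps2, and both branches raise the transcription of chaperone and ERAD genes, whereas PERK phosphorylates eIF2α and so raises translation of ATF4. Kinases other than PERK also phosphorylate eIF2α. The targets of the branches overlap in part, since Herpud1 is a target of ATF6, XBP1 and ATF4.

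The depth was estimated at 13400000 to 14040000 fragments per library, and 1 fragment on a transcript of 1 kb was worth 0.0712 to 0.0746 FPKM. Markers were examined because they bear on which cells were measured. All 6 germ cell markers had means under 1 FPKM, 3 of them were at 0 in every library, and their summed level was 0.48 to 1.38 FPKM in control and 0.33 to 0.93 FPKM in metformin libraries. For the 12 fibroblast markers, 1 was at 0 in every library and none reached a mean of 1 FPKM, with sums of 1.41 to 1.62 and 1.19 to 1.87 FPKM. All 18 blood cell markers had means of at least 1 FPKM, and their sum was 1133.8 to 1140.5 FPKM in control and 1149.1 to 1173.5 FPKM in metformin libraries, without overlap. The defining markers of the labelled cell type were thus at or near 0 in these libraries, so that whether they hold the labelled cells is uncertain. The part of the blood cell markers in the results was not tested, and in bulk RNA fewer cells of a type and less RNA per cell cannot be told apart.

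No ER folding gene passed the test between metformin and control, and differences between the groups were small in both directions. Of the 38 tested members, 0 had an adjusted p under 0.05 in limma's test on log2(FPKM + 1) with Benjamini-Hochberg adjustment over the 10661 tested genes, beside 3 of all tested genes (0.0281%). At an unadjusted p under 0.05, 3 members were higher with metformin (7.89%, beside 6.03% of all tested genes) and 4 were lower (10.5%, beside 4.81%). The 3 metformin libraries were all above the 3 control libraries for 6 members (15.8%, beside 8.89% of all tested genes), and all below them for another 6 (15.8%, beside 8.10%), and the groups overlapped for the other 26. Among the 5096 genes that averaged 10 FPKM or more, these background shares were 11.3% and 9.95%, and of the 31 members at that level 4 were higher and 4 lower without overlap. The median log2 fold change of the members was 0.0040 and that of all tested genes was 0.0041. The summed level of the 40 members was 3263 ± 7.89 FPKM (SD, n = 3) in control and 3261 ± 10.7 FPKM (SD, n = 3) in metformin libraries, with overlapping groups.

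**Figure D1:**
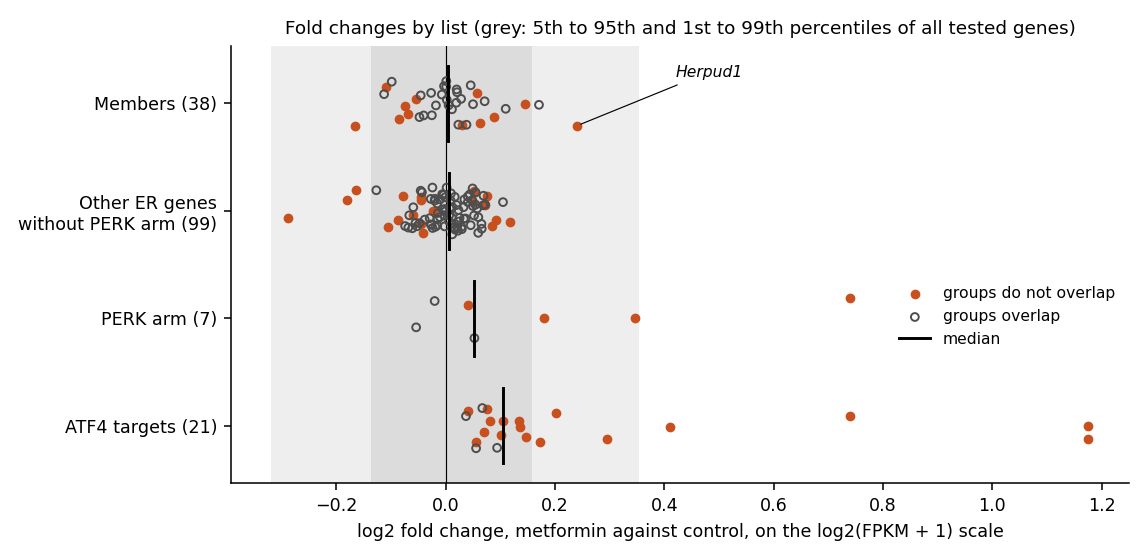
Each point is the log2 fold change of a gene, metformin against control, on the log2(FPKM + 1) scale, by list, with filled points where the 3 libraries of each group do not overlap, black lines for medians and grey bands for the percentiles of all tested genes. The members lie between -0.17 and 0.24 around a median near 0, whereas the ATF4 targets lie above 0 and reach 1.18. The ATF4 list was written with earlier results of these libraries known, so that its direction is no independent evidence.

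The members that differed beyond the overlap of the groups went in both directions. BiP, GRP94, calnexin, the ERAD mannosidase Edem3, the oxidase Ero1lb and the protease Mbtps2 were slightly lower with metformin, whereas the ERAD genes Herpud1, Selenos and Derl2, the disulfide isomerase P4hb, calreticulin and the sensor Ern1 were slightly higher. Apart from Herpud1, Ern1 and Ero1lb, the means of these members differed by less than 10% between the groups. Each direction held 15.8% of the tested members, beside 8.89% of all tested genes higher and 8.10% lower. At 10 FPKM or more, 4 of 31 members each way were near the background shares of 11.3% and 9.95%. None passed the adjusted threshold, and for Ern1, Mbtps2, Ero1lb, Calr and Derl2 the unadjusted p was not under 0.05 (limma).

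As background to their regulation, chaperone genes that respond to unfolded protein carry ER stress response elements in their promoters, which are bound by ATF6 and XBP1 together with NF-Y. RefSeq windows from 250 bases before to 50 bases after the start (build GRCm38.p6) were found for 36 of the 40 members and were searched on both strands. The ER stress response element, ERSE, was searched as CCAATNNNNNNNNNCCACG, and the shorter ERSE-II as ATTGGNCCACG. ERSE was present in the windows of 10 members (27.8%), beside 0.119% of the 32851 windows in the table and 0.161% of the 8719 windows of tested genes. These members were Hspa5, Hsp90b1 (which has 2), Dnajc3, Creld2, Pdia6, Ero1lb, Calr, Canx, Syvn1 and Derl3. Members were chosen by name as genes of this response. A share of such elements above the background therefore follows from the choice and is no finding. The elements of 4 abundant chaperones are shown because their groups did not overlap, with the fixed letters in capitals:
Hspa5 ERSE, chr2:34772025-34772043, plus strand: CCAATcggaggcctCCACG
Hsp90b1 distal ERSE, chr10:86705638-86705656, minus strand: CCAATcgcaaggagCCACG
Hsp90b1 proximal ERSE, chr10:86705533-86705551, plus strand: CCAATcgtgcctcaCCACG
Canx ERSE, chr11:50325800-50325818, minus strand: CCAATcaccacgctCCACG
Calr ERSE, chr8:84847075-84847093, plus strand: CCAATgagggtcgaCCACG
These elements start 65 bases upstream of the RefSeq start for Hspa5, 212 and 107 bases upstream for Hsp90b1, 145 for Canx and 162 for Calr. The fixed letters are shared by construction of the search, and the 9 bases between them differ in every pair shown.

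Herpud1 was the member with the highest log2 fold change, and its window holds ERSE-II rather than ERSE. ERSE-II was present in the windows of 2 members, Herpud1 and Dnajb11, beside 0.0365% of all windows. Herpud1 was also the 1 member of 36 (2.78%) whose window holds the C/EBP-ATF element searched as TGATGNAA, the kind of site through which ATF4 acts. That share is near the background of 3.97% of all windows and 2.12% of those of tested genes, and nothing is read from it. Outside the members only Trib3, Chac1, Ddit3 and Atf4 were searched, with their results known, and the other listed ATF4 targets were not. The same letters are in the windows of Trib3 and Chac1, which rose with metformin. They are absent from those of Ddit3, which also rose, and Atf4. No share over the ATF4 targets was made, so that nothing is read from these matches. The Herpud1 and Chac1 matches are shown with flanking bases, and the coordinates are those of the element from its first to its last capital:
Herpud1 ERSE-II, chr8:94386377-94386387, plus strand: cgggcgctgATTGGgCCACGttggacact
Herpud1 C/EBP-ATF, chr8:94386317-94386324, minus strand: ggggtgcgggcTGATGcAAcccgccgtggt
Chac1 C/EBP-ATF, chr2:119351049-119351056, minus strand: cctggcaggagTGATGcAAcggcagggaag
A match describes the letters and is not evidence of binding. The core of the ATF6 and XBP1 element, TGACGTGG or TGACGTGA, was found in 1 member, Hspa5, and in 1.12% of all windows.

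**Figure D2:**
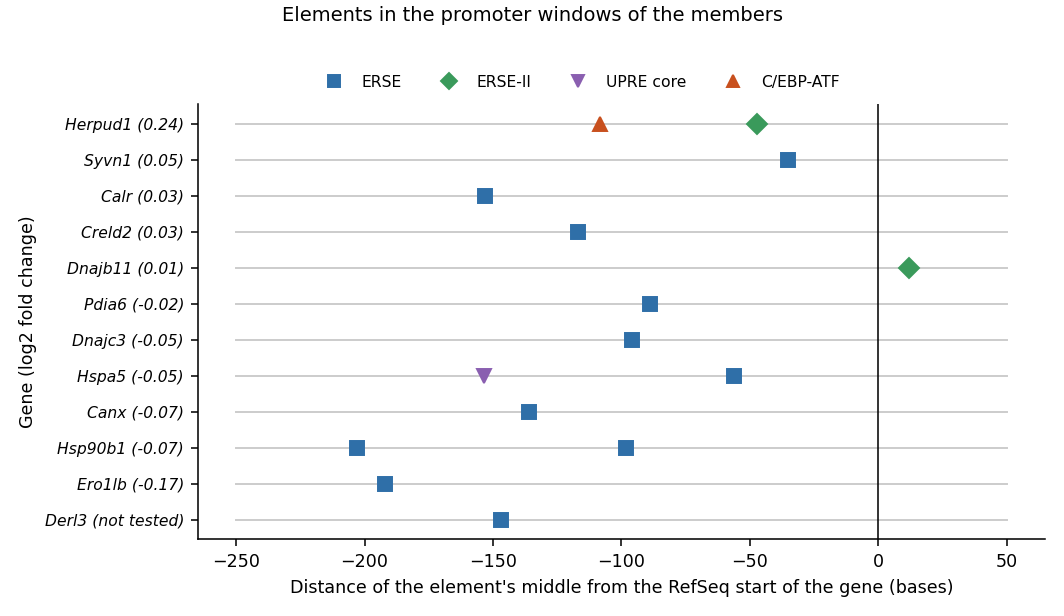
Positions of the 4 searched elements in the promoter windows of the members that hold one, in bases from the RefSeq start, with the log2 fold change of each gene beside its symbol. The ERSE matches lie 26 to 212 bases upstream of the start, and of the 9 tested members that hold ERSE 3 have positive and 6 negative log2 fold changes.

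The 9 tested members with ERSE had a median log2 fold change of -0.05, with groups that did not overlap for 1 that was higher (Calr) and 4 that were lower (Hspa5, Hsp90b1, Canx and Ero1lb). Those with a window but without ERSE, 25 members, had a median of 0.02, with 5 higher and 2 lower, where 8.89% and 8.10% of all tested genes were higher and lower without overlap. The ERSE genes were also the more abundant ones, with a median level of 152.0 FPKM beside 31.1 FPKM, and the part of abundance in this was not tested.

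The chaperones of the HSP70 and HSP90 kind and their cofactors comprised 11 members, all tested. At an unadjusted p under 0.05, 2 of them were lower with metformin and 0 higher, beside 4.81% and 6.03% of all tested genes, 7 log2 fold changes were negative and 4 positive, and the median was -0.04. Their summed level was 1066 ± 3.21 FPKM (SD, n = 3) in control and 1042 ± 8.18 FPKM (SD, n = 3) in metformin libraries, without overlap, while the sum of the blood cell markers given above was higher. The difference rests on Hspa5 and Hsp90b1, since the other 9 members summed to 431.3 ± 4.71 FPKM in control and 435.8 ± 7.55 FPKM with metformin (SD, n = 3), with overlap, a split made after the values were seen. Hspa5 encodes BiP, the chaperone that binds the sensors and is the standard marker of ER stress, and its gene lies at chr2:34771970-34777547 (GRCm38). Hspa5 stood at 270.5, 273.5 and 274.4 FPKM in the control libraries and at 261.6, 263.0 and 263.8 FPKM in the metformin libraries. All 3 metformin libraries were below all controls. The difference of the means was -3.68%, with a log2 fold change of -0.05 ± 0.02 (SE), an unadjusted 95% interval of -0.09 to -0.02 and an adjusted p of 0.364 in limma's test. Without the trend of the spread on the mean, its SE was 0.03 and its unadjusted p 0.0935 (limma).

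Hsp90b1 encodes GRP94, which folds receptors and integrins in the ER. Its level was 362.5, 366.8 and 356.8 FPKM in control libraries and 344.4, 339.9 and 346.6 FPKM in metformin libraries. Here too the groups did not overlap, and the means differed by -5.08%, with a log2 fold change of -0.07 ± 0.02 (SE) and an adjusted p of 0.331 (limma). The gene lies at chr10:86690209-86705509 and shares 977 bases on the same strand with Gm15344, which was at 3.33 FPKM, and 4598 bases with an unnamed gene of the opposite strand at 4.58 FPKM.

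The groups overlapped for the other 9 members of this kind. Dnajb9 (ERdj4), a J-domain cofactor that represses IRE1 and is a sensitive XBP1 target, was at 3.92, 4.66 and 5.13 FPKM in control and at 4.22, 3.99 and 5.03 FPKM in metformin libraries. Its groups overlapped, with a log2 fold change of -0.04 ± 0.10 (SE), an interval of -0.28 to 0.20 and an adjusted p of 0.917 (limma). Sdf2l1, a cofactor of BiP that is also induced in ER stress, was at 120.0, 113.0 and 120.4 FPKM in control and at 131.9, 116.8 and 123.1 FPKM in metformin libraries. The lowest metformin library lay within the range of the controls, with a log2 fold change of 0.07 ± 0.05 (SE) and an adjusted p of 0.614 (limma). The remaining members of this group, Hyou1, Dnajb11, Dnajc3, Dnajc10, Sdf2, Manf and Creld2, had log2 fold changes between -0.11 (Sdf2) and 0.03 (Creld2), all with overlapping groups. Manf overlaps Vprbp on the opposite strand along 42681 bases and Rbm15b on the same strand along 6511 bases, and Sdf2 overlaps Supt6h along 242 bases. Whether the authors counted by strand is not given in the sources used here, so that the values of these overlapping genes are uncertain.

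**Figure D3:**
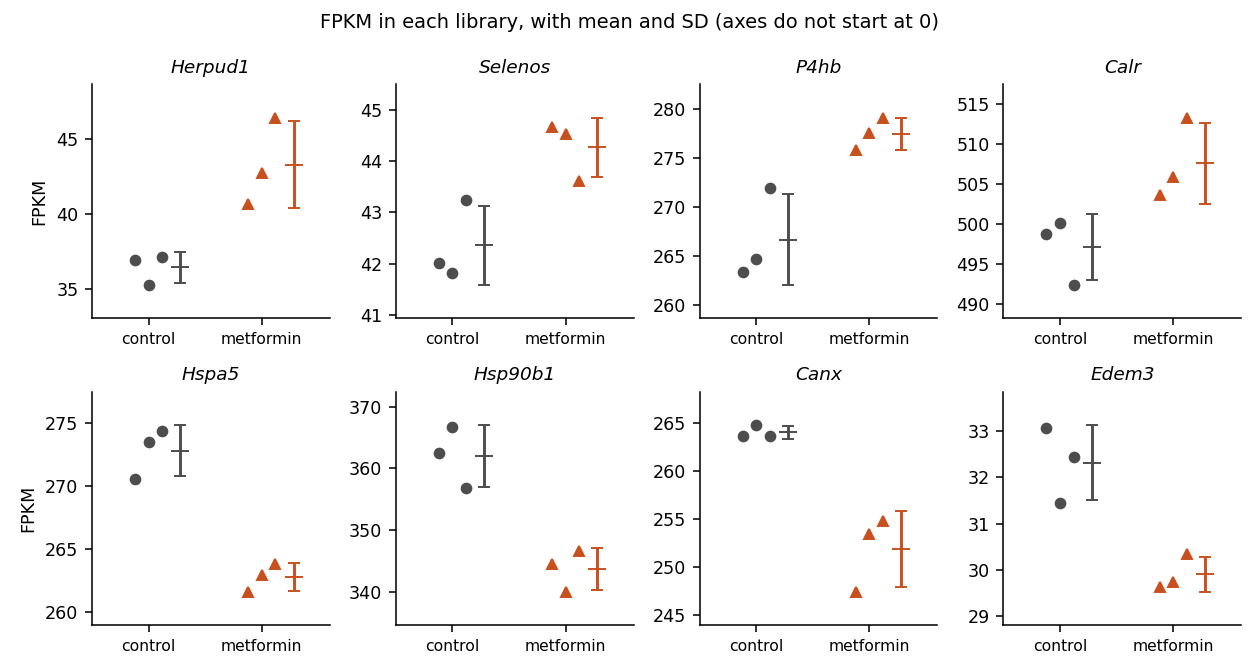
FPKM of named members in each library, with the mean and SD of the 3 libraries of each group, on axes that do not start at 0. Herpud1 has the largest difference of the means relative to its level among the genes drawn, from 35.3 to 37.1 FPKM in control to 40.7 to 46.4 FPKM in metformin libraries, and Hspa5, Hsp90b1 and Canx are lower with metformin.

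The lectin chaperones went in opposite directions. Calnexin is the membrane-bound and calreticulin the soluble partner in the same glycoprotein cycle. Canx (chr11:50293961-50325673) was at 263.6, 264.8 and 263.7 FPKM in control and at 247.4, 253.4 and 254.8 FPKM in metformin libraries. The groups did not overlap, and the means differed by -4.61%, with a log2 fold change of -0.07 ± 0.02 (SE) and an adjusted p of 0.346 (limma). Calr, the member with the highest FPKM, was at 498.8, 500.1 and 492.4 FPKM in control and at 503.7, 505.8 and 513.3 FPKM in metformin libraries. All metformin libraries were above all controls by a narrow margin, with a log2 fold change of 0.03 ± 0.02 (SE) and an adjusted p of 0.545 (limma). This direction turned under quantile normalization, where the log2 fold change of Calr was -0.01.

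Among the 6 members of disulfide formation, 1 was higher at an unadjusted p under 0.05 and 0 lower, beside 6.03% and 4.81% of all tested genes, and the median log2 fold change was 0.02. P4hb, the founding protein disulfide isomerase, was at 263.4, 264.7 and 271.9 FPKM in control and at 275.8, 277.5 and 279.0 FPKM in metformin libraries. The groups did not overlap, with a log2 fold change of 0.06 ± 0.02 (SE), a difference of 4.04% in the means and an adjusted p of 0.384 (limma). In 4 of 15 alternatives its unadjusted p was not under 0.05. Pdia3, the isomerase that works with calnexin and calreticulin, was at 271.9, 281.5 and 278.4 FPKM in control and at 283.5, 282.4 and 277.7 FPKM in metformin libraries, which overlap, with an adjusted p of 0.746 (limma). Ero1lb, the less abundant of both oxidases that pass electrons from the isomerases to oxygen, was at 2.24, 2.20 and 2.69 FPKM in control and at 2.05, 2.17 and 1.80 FPKM in metformin libraries. The nearest libraries of its groups were 0.03 FPKM apart, and the log2 fold change was -0.17 ± 0.09 (SE) with an adjusted p of 0.527 (limma). The other oxidase, Ero1l, and the isomerases Pdia4 and Pdia6 had log2 fold changes between -0.02 and 0.02 with overlapping groups.

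Of the 10 tested members of ERAD, 3 were higher with metformin and 1 was lower without overlap, beside 8.89% and 8.10% of all tested genes. At an unadjusted p under 0.05, 2 were higher and 1 was lower, beside 6.03% and 4.81% of all tested genes, 7 log2 fold changes were positive, and the median was 0.05. Their summed level, with Derl3 included, was 251.4 ± 2.89 FPKM (SD, n = 3) in control and 261.8 ± 0.843 FPKM (SD, n = 3) in metformin libraries, without overlap, as for the blood cell markers. Without Herpud1, a choice made after its values were seen, the sums were 215.0 ± 2.09 and 218.6 ± 2.14 FPKM (SD, n = 3) and overlapped. Herpud1 (chr8:94386438-94395377), a membrane protein that holds the HRD1 ligase complex together, is a target of ATF6, XBP1 and ATF4. It was at 36.9, 35.3 and 37.1 FPKM in control and at 40.7, 42.7 and 46.4 FPKM in metformin libraries. All metformin libraries were above all controls. The mean was 36.4 ± 1.01 FPKM (SD, n = 3) in control and 43.3 ± 2.90 FPKM (SD, n = 3) with metformin, a difference of 18.8%, with a log2 fold change of 0.24 ± 0.05 (SE), an interval of 0.13 to 0.36 and an adjusted p of 0.301 (limma). By unadjusted p it ranked 53 among all tested genes, and it had the lowest adjusted p of the members.

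Selenos, a selenoprotein that ties p97 to the retrotranslocation complex, was at 42.02, 41.81 and 43.24 FPKM in control and at 44.67, 44.53 and 43.61 FPKM in metformin libraries. Its groups did not overlap, with a log2 fold change of 0.06 ± 0.03 (SE) and an adjusted p of 0.444 (limma). Its unadjusted p was not under 0.05 in 9 of 15 alternatives. Derl2, a derlin of the same complex, was at 6.12, 6.12 and 6.01 FPKM in control and at 6.44, 6.40 and 6.75 FPKM in metformin libraries. Again the metformin libraries were all higher, with a log2 fold change of 0.09 ± 0.04 (SE) and an adjusted p of 0.478 (limma), and Derl2 shares 231 bases with Mis12 of the opposite strand, which was at 12.5 FPKM. Edem3, a mannosidase that marks glycoproteins for degradation, went the other way. Its level was 33.1, 31.4 and 32.4 FPKM in control and 29.6, 29.7 and 30.3 FPKM in metformin libraries, which did not overlap, with a log2 fold change of -0.11 ± 0.03 (SE) and an adjusted p of 0.346 (limma). Edem1 and Edem2, mannosidase-like relatives of Edem3, had log2 fold changes of -0.02 and -0.03. The ligase Syvn1 (HRD1), its partner Sel1l, the lectin Os9 and Derl1 had log2 fold changes of 0.01 to 0.11, all with overlapping groups. Derl3, the inducible derlin, was not tested, and it was at 0.15, 0.33 and 0.14 FPKM in control and at 0.32, 0.18 and 0.22 FPKM in metformin libraries, or 3 to 6 fragments.

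**Figure D4:**
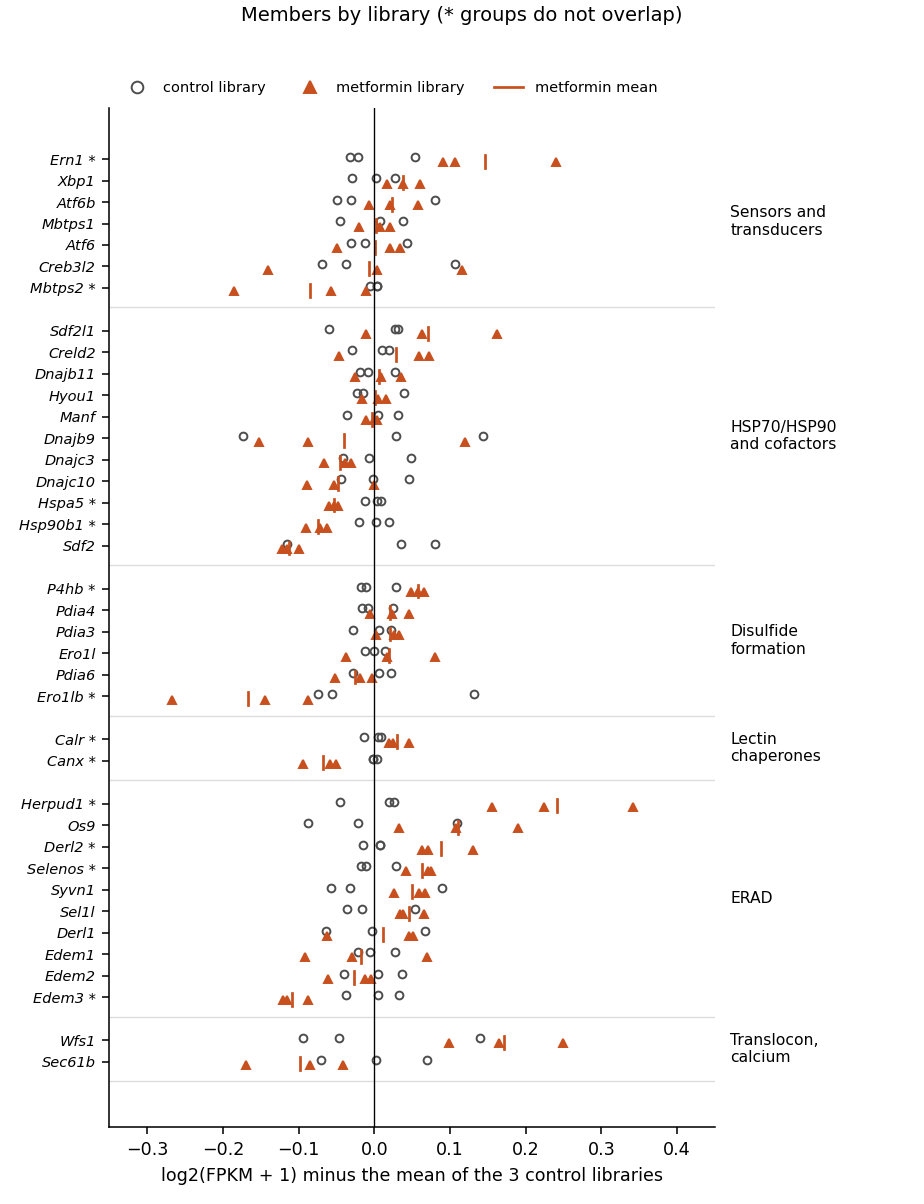
Each tested member is drawn as log2(FPKM + 1) in every library minus the mean of the 3 control libraries, by role, with circles for control, triangles for metformin libraries, a line for the metformin mean and an asterisk where the groups do not overlap. The metformin mean of Herpud1 lies at 0.24 and that of Ero1lb at -0.17, and the other means lie between them.

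The sensors and transcription factors showed no call in either direction. None of the 7 tested members passed an unadjusted p of 0.05 in limma's test, 1 group comparison was higher without overlap (Ern1) and 1 was lower (Mbtps2), beside 8.89% and 8.10% of all tested genes, and the median log2 fold change was 0.0023. Ern1, the kinase and RNase IRE1, was at 3.19, 2.95 and 2.98 FPKM in control and at 3.30, 3.35 and 3.77 FPKM in metformin libraries. Metformin libraries were all above controls, with a log2 fold change of 0.15 ± 0.06 (SE), an interval of -0.0020 to 0.29 and an adjusted p of 0.467 (limma). Its unadjusted p was under 0.05 in 3 of 14 alternatives. Xbp1, its mRNA substrate, was at 58.6, 56.4 and 57.6 FPKM in control and at 59.1, 58.2 and 60.1 FPKM in metformin libraries. These overlapped, with a log2 fold change of 0.04 ± 0.03 (SE) and an adjusted p of 0.613 (limma). Gene-level FPKM adds the spliced and unspliced Xbp1 mRNA, so that splicing could not be read from it.

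Atf6 was at 13.4, 12.8 and 12.6 FPKM in control and at 12.5, 13.3 and 13.1 FPKM in metformin libraries, with a log2 fold change of 0.0013 ± 0.04 (SE) and an adjusted p of 0.996 (limma). The mean level was 12.94 FPKM in control and 12.95 FPKM in metformin libraries. Mbtps2, the protease that makes the final cut of ATF6, was at 5.06, 5.06 and 5.02 FPKM in control and at 4.32, 4.81 and 5.0 FPKM in metformin libraries. The nearest libraries of both groups differed by 0.02 FPKM, and the log2 fold change was -0.08 ± 0.06 (SE) with an adjusted p of 0.616 (limma). Mbtps1, which makes the first cut, Atf6b and Creb3l2 had log2 fold changes between -0.01 and 0.02. Crebrf, a regulator of the response, was under the limit for testing, at 0.81, 0.81 and 1.01 FPKM in control and at 1.08, 1.08 and 0.79 FPKM in metformin libraries. The members Sec61b, a subunit of the translocon through which new chains enter the ER, and Wfs1, an ER protein of calcium handling, had log2 fold changes of -0.10 and 0.17 with overlapping groups and an adjusted p of 0.484 each (limma).

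**Figure D5:**
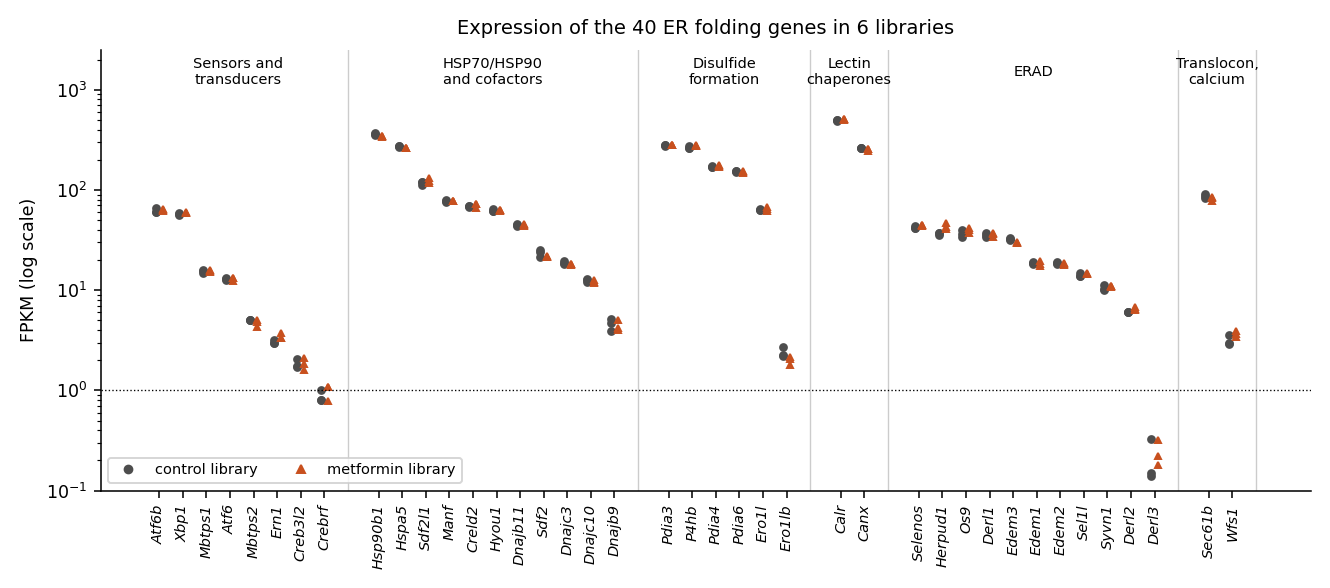
FPKM of all 40 members in each library on a log scale, by role, with circles for control and triangles for metformin libraries. The chaperones Calr, Hsp90b1, Pdia3, P4hb, Hspa5 and Canx lie above 200 FPKM in every library, Ern1, Dnajb9 and Ero1lb lie under 6 FPKM, and the libraries of both groups nearly coincide for most members.

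Members differed far more from each other than between the groups. The median level of the tested members was 38.9 FPKM, beside 9.35 FPKM over all tested genes. In FPKM, which is per transcript length, Calr ranked 67, Hsp90b1 101, Pdia3 140, P4hb 145, Hspa5 150 and Canx 156 of the 10661 tested genes. Among the transducers Xbp1 ranked 983 and Ern1 8370.

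Among other genes of the secretory pathway, calls were again few and in both directions outside the PERK branch. Of 121 further ER genes listed, 120 were found and 106 tested. Without the 7 genes of the PERK arm, 99 were tested, of which 0 had an adjusted p under 0.05, 4 were higher at an unadjusted p under 0.05 (Srp14, Qsox1, Aup1 and Bag6) and 5 were lower (Sec61a2, Sec61g, Spcs3, Tmx3 and Ufd1l), and their median log2 fold change was 0.0068. These are 4.04% and 5.05% of the 99 genes, beside 6.03% and 4.81% of all tested genes. Of the 22 tested genes of the translocon and signal peptidase, 16 had negative and 6 positive log2 fold changes, with 5 lower and 2 higher without overlap (22.7% and 9.09%, beside 8.10% and 8.89% of all tested genes). Of the 6 tested IRE1 decay substrates and partners, 0 passed an unadjusted p of 0.05 in limma's test and 0 an adjusted p. All 6 log2 fold changes were positive, beside 52.3% of all tested genes, and their median was 0.06. Without overlap, 1 was higher (16.7%, beside 8.89% of all tested genes).

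Of the other ER genes listed, only Ddit3 passed the adjusted threshold, which was listed with the PERK arm and also with the ATF4 targets. In the PERK arm, 7 genes were tested. At an unadjusted p under 0.05 (limma), 3 were higher and 0 lower, beside 6.03% and 4.81% of all tested genes. The groups did not overlap for 4 that were higher and 0 that were lower, beside 8.89% and 8.10%. Ppp1r15a was among these 4, with a log2 fold change of 0.35 ± 0.05 (SE) and an adjusted p of 0.223 (limma). Ddit3 encodes CHOP, a transcription factor induced by ATF4 that is used as a marker of ER stress and of the wider integrated stress response. Ddit3 was at 7.32, 6.90 and 7.77 FPKM in control and at 12.4, 13.4 and 12.9 FPKM in metformin libraries. The groups stood far apart, and Ddit3 rose with metformin by a log2 fold change of 0.74 ± 0.05 (SE), with an adjusted p of 0.0045 (limma). With the replicate block, and with each gene's own spread, 0 of the other ER genes passed the adjusted threshold, Ddit3 included. The gene shares 68 bases with Mars of the opposite strand, at 59.7 FPKM. Atf4 was at 200.3, 207.4 and 202.9 FPKM in control and at 238.0, 233.0 and 221.8 FPKM in metformin libraries, without overlap, with a log2 fold change of 0.18 ± 0.03 (SE) and an adjusted p of 0.243 (limma). Eif2ak3, the PERK kinase itself, had overlapping groups with means of 5.59 ± 0.301 and 5.83 ± 0.221 FPKM (SD, n = 3) and an adjusted p of 0.742 (limma).

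The ATF4 targets can be set beside the members, although that list was written with earlier results of these libraries known and is no independent evidence of its direction. Of its 21 tested genes, 3 passed the adjusted threshold (Trib3, Chac1 and again Ddit3, which both lists hold), beside 3 of all 10661 tested genes (0.0281%). With the replicate block, 2 of all tested genes passed it. All 21 log2 fold changes were positive, with 17 groups higher without overlap, beside 8.89% of all tested genes. Their median was 0.11, beside 22 positive and 16 negative log2 fold changes and a median of 0.0040 for the ER members. Trib3, a pseudokinase target of ATF4 and CHOP, was at 6.42, 6.92 and 6.33 FPKM in control and at 15.9, 16.4 and 15.8 FPKM in metformin libraries. It rose with metformin by a log2 fold change of 1.17 ± 0.04 (SE), with an adjusted p of 1.27e-04 (limma). The highest log2 fold change of an ER member was that of Herpud1, at 0.24.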

How the data were processed

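RNA-seq of 3 control and 3 metformin libraries was analysed. The authors deposited FPKM values per Ensembl gene. The submitters' processing notes name HISAT2, DESeq2 and mm9, without roles, whereas gene positions in the table are those of GRCm38. The labels name a stranded library kit and the study's methods another kit, and whether counting used strand is not given in the sources used here.

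Members and lists were chosen with earlier results of these data known. Older symbols were matched through RefSeq synonyms and position (Crebrf and Selenos). Depth was estimated from the step that 1 fragment makes in genes with 1 exon under 400 bases (348 to 385 values per library, 100% within 0.1 of a whole number), and covers counting error only. Values were tested as log2(FPKM + 1), a scale that understates changes of low genes, for genes whose 6 values averaged 1 FPKM or more, with limma 3.58.1 (R 4.3.3, lmFit and eBayes with trend), two-sided, with Benjamini-Hochberg adjustment at 0.05 over the 10661 genes and no replicate block. Intervals are limma's 95% intervals without adjustment. An exact permutation test of 3 against 3 libraries cannot go below 0.1. The fit was also run on simulated data, for which no outcome is given here, and nothing is read from it.

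Values in every library are given for members with an adjusted or unadjusted p under 0.05, for Hspa5, Hsp90b1, Xbp1, Ern1, Atf6, Herpud1, Dnajb9 and Sdf2l1, for the 3 with the highest mean FPKM, for the 3 highest and 3 lowest log2 fold changes among groups that do not overlap, for members too low to test, and for Ddit3, Trib3 and Atf4. Other genes named were chosen after their values were seen. The alternatives tried were a pseudocount of 0.1, an average of 10 FPKM or no minimum at all, TPM rescaling, quantile normalization, median centring, no trend, unmoderated spreads, the replicate block and each library left out. Promoter windows of RefSeq (GRCm38.p6) were searched with Python 3.11.15, and figures drawn with matplotlib 3.10.9. Protein ends were not analysed here.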

Additional observations from a re-analysis of the deposited data

How the results depend on the processing

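Over the 15 alternatives, 0 members passed the adjusted threshold in each. Of the 17 tested members named with values in every library (Crebrf and Derl3 were not tested), 14 kept their direction under each alternative they entered. Ern1, Mbtps2, Ero1lb, Derl2 and Dnajb9 did not reach 10 FPKM and have no value under that minimum. The adjusted p of Herpud1 ranged from 0.166 to 0.472 and its log2 fold change from 0.19 to 0.28. At an unadjusted p under 0.05, 2 members were lower without the trend, beside 4 in the main fit. There Hspa5, Canx, P4hb and Selenos lost the call and Ern1 and Derl2 gained one. With each gene's own spread, 5 were higher, beside 3. Of all 10661 tested genes, 1037 passed in either direction without the trend and 1080 with each gene's own spread, beside 1156. Of the other ER genes, 2 were lower with an average of 10 FPKM required and 3 higher under quantile normalization, beside 5 and 7. Under these settings, 725 of all 5096 and 1138 of all 10661 tested genes passed in either direction. With each gene's own spread and with the replicate block, 0 of the other ER genes passed the adjusted threshold, beside 1. The log2 fold change of Atf6 was -0.0030 under TPM rescaling and -0.0011 under median centring, and that of Calr was -0.0115 under quantile normalization. The causes were not tested.

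Leaving out each library in turn gave log2 fold changes of -0.0148 to 0.0268 for Atf6 and -0.127 to 0.032 for Dnajb9. Values also moved by over 1.5 times for Mbtps2 (-0.03 without metformin 1), Ero1lb (-0.10 without control 3), Sdf2l1 (0.03 without metformin 1, 0.04 without control 2, 0.11 without metformin 2), Pdia3 (0.0063 without control 1, 0.03 without control 2) and Xbp1 (0.02 without control 2). The median of the members was -0.003 to 0.018, with the highest values without control 1 (0.018) and metformin 1 (0.0137). Unadjusted calls were 2 to 4 higher and 4 to 5 lower for members. For the other ER genes they were 3 to 8 higher and 3 to 7 lower, with 3 and 3 without control 3. Of all 10661 tested genes, 917 to 1058 passed in either direction, with 970 without control 3, beside 1156 with all libraries. Groups without overlap were 7 to 9 of 38 in each direction, beside 13.8% to 14.7% higher and 12.2% to 13.1% lower of all tested genes. Adjusted calls were 0 for members and 1 for the other ER genes throughout.

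The deviations of same-numbered libraries had correlation coefficients of -0.032, 0.018 and 0.048. For libraries of different numbers these were -0.050 to 0.030, so that the numbers were not read as a pairing. With the replicate block, 3 members were higher, no longer with Selenos among them, and 4 lower at an unadjusted p under 0.05 (limma). Of all 10661 tested genes, 1029 passed in either direction with the block, beside 1156 without it. The median of the members was 0.0040, and the adjusted p of Herpud1 was 0.408 (limma). The search of protein ends was not run. Differences of the size of those in Hspa5 and Hsp90b1 did not pass adjustment with 3 libraries a group, and FPKM without counts allowed no count test.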
